A study of Mus musculus with 22 samples.

Results

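The collagen alpha chains of the mouse colon were described over 22 RNA-seq libraries of colon tissue. All rows of the expression table whose gene symbol has the form of a collagen chain (Col, a type number, a, a chain number) were taken, 44 of 23997 genes. They were split into 11 fibrillar chains, 6 basement membrane chains (type IV collagen) and 27 chains of other types. All libraries came from colon of wild type BALB/c mice, 5 weeks old at the start, which had free access to diet and to their water for 3 weeks. CON (8 libraries) received distilled water throughout. DSS (5 libraries) received distilled water, with 5% dextran sulfate sodium in it for the last week, an agent that damages the colonic epithelium and gives colitis. HMLS (4 libraries) and TM (5 libraries) received deep sea water of these names for the same time, and in the last week 5% DSS in that water, and DSS, HMLS and TM are called the colitis groups here. Deep sea water without DSS is not analysed here. Nothing in the labels says that each library is a separate mouse, so p-values measure the spread between libraries.

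Collagens are the main structural proteins of the extracellular matrix, built of 3 alpha chains wound into a triple helix. Fibrillar types I, III and V form the tensile fibres of the submucosa and the lamina propria, where fibroblasts and smooth muscle cells make most of them. Type IV forms the sheet-like network of basement membranes under epithelium and endothelium and around muscle cells. Type VI forms beaded filaments between fibres and cells, the fibril-associated types (XII, XIV, XVI and others) sit on the surface of fibrils, and the multiplexins XV and XVIII belong to basement membrane zones. Chains are hydroxylated and folded in the endoplasmic reticulum, trimmed outside the cell and cross-linked by lysyl oxidases. In whole tissue, fewer cells that make a chain and less RNA per cell cannot be told apart.

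Promoter sequence is shown for 5 chains on which the results turn: Col3a1, the chain with the largest fall; Col1a2, of type I; Col6a3, of type VI, whose ratio to Col6a1 changed; and Col4a1 with Col4a2, the paired type IV genes whose ratio changed. Windows run from 250 bases before to 50 bases after the RefSeq start site (RefSeq, build GRCm38.p6), and 35 of the 44 members had at least 1 window, 38 windows in all. They lie at chr1:45311288-45311587 on the plus strand (Col3a1), chr6:4505368-4505667 on the plus strand (Col1a2), chr1:90843922-90844221 on the minus strand (Col6a3), chr8:11312777-11313076 on the minus strand (Col4a1) and chr8:11312555-11312854 on the plus strand (Col4a2). Each is written 5′ to 3′ on the strand of its gene, and capitals mark matches on either strand to 3 common promoter motifs. The CCAAT box was searched by its letters of that name, the TATA box was searched for as the letters TATAAA, and the GC box, which binds factors such as Sp1, was searched for as the letters GGGCGG. A match on the other strand shows as the reverse complement, and a match is a description, not a shown binding site.
Col3a1: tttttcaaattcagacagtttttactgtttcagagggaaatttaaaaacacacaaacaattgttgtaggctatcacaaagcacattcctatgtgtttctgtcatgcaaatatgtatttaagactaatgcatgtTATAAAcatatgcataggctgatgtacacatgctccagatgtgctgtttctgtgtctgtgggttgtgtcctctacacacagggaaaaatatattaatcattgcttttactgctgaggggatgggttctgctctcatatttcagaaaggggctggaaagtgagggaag
Col1a2: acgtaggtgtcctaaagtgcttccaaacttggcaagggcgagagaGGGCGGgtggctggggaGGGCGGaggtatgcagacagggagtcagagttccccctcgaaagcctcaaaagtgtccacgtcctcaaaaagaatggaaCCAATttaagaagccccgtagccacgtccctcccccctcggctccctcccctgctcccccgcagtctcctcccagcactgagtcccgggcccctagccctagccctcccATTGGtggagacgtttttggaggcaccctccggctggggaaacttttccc
Col6a3: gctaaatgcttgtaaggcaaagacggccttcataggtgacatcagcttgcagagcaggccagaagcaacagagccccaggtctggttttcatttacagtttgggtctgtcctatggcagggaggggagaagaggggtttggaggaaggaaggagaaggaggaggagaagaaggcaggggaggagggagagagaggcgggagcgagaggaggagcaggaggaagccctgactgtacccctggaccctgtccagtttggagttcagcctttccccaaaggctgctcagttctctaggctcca
Col4a1: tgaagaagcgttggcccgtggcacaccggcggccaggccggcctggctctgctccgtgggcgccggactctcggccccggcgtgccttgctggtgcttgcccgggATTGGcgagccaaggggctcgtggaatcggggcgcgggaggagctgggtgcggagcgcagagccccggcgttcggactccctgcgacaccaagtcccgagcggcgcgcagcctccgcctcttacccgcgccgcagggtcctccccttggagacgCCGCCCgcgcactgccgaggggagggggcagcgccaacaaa
Col4a2: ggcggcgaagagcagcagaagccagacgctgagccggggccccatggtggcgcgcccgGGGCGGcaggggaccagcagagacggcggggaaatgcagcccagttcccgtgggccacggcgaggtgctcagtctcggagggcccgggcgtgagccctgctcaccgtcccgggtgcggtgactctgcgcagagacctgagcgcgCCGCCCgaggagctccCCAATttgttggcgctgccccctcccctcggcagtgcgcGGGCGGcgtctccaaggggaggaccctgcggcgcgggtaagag
The Col3a1 window held 1 TATAAA at -117 from the start site, no CCAAT and no GGGCGG, and its share of G and C, 37.7%, was the lowest of the members' windows (median 59.8%, highest 75%). The Col1a2 window held CCAAT at -109 and, reversed, at 1, and GGGCGG at -205 and -188. None of the 3 motifs was in the Col6a3 window. The Col4a1 and Col4a2 windows share 78 bases, chr8:11312777-11312854, read from opposite strands: the start sites, 11312826 and 11312805, lie 21 bases apart and the first bases of the transcripts overlap. Both windows are rich in G and C (74% and 73.7%). CCAAT was in 13 of the 38 member windows (34.2%; 37.4% of the 32851 windows of all genes), TATAAA in 5 (13.2%; 13.6%) and GGGCGG in 23 (60.5%; 35.7%).

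Several members are neighbours in the genome (GENCODE M21, GRCm38, the build called mm10 in the submitters' notes). Col3a1 (chr1:45311538-45349706, plus strand) and Col5a2 (chr1:45374321-45503282, minus strand) are adjacent fibrillar genes, and both were lower in each colitis group. Col6a1 (chr10:76708792-76726168) and Col6a2 (chr10:76595762-76623630) lie on the same strand of chromosome 10. Col6a4, Col6a5 and Col6a6 follow each other between chr9:105687809 and chr9:106096783, all on the minus strand. Col1a1 (chr11:94936224-94953042) and Col1a2 (chr6:4504814-4541544), whose products share 1 molecule, lie on different chromosomes. Col4a1 (chr8:11198423-11312826) and Col4a2 (chr8:11312805-11449287) are transcribed away from each other.

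Libraries held 48089882 to 68733410 reads. The share of reads mapped was 89.9 to 91.9% in CON, 82.3 to 88.9% in DSS, 88.8 to 90.5% in HMLS, while TM had 89.5 to 92.7%, so that DSS did not overlap CON. TM replicate 3 stood apart from the other TM libraries. Of the 15 chains lower in DSS against CON, 6 were above the CON range in it, 8 within and 1 below, while 11 to 14 of the 15 were below the CON range in the other 4 TM libraries. Member counts in TM, and the chains whose call or direction depends on it, are given with and without it; counts over other gene lists in TM include it. The table names no unit: its numbers were taken to be FPKM, fragments scaled to transcript length and to mapped reads, as Cufflinks gives, and tested as log2(FPKM + 1) over the genes that reached 1 FPKM in 4 or more libraries of a fit. A gene was called at a Benjamini-Hochberg adjusted p under 0.05, and folds come from log2(FPKM + 1), where low genes change by less than in FPKM itself.

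In CON the collagens spanned a wide range of levels. Col3a1 was highest with 112 ± 18.7 FPKM (SD, n = 8), followed by Col4a1 (57.6 ± 9.66), Col1a2 (48.9 ± 9.05), Col6a1 (33.3 ± 6.01), Col4a2 (31.6 ± 5.92), Col1a1 (28.3 ± 5.08), Col6a2 (25.5 ± 5.83), Col6a3 (15.6 ± 2.17), Col5a2 (14.8 ± 2.55) and Col5a1 (12.4 ± 3.04). Col3a1 did not overlap any other chain, with a lowest value of 77.1 FPKM against a highest of 70.2 for Col4a1. From Col4a1 down to Col5a1 the CON libraries of each chain overlapped those of the next in this order. A mean under 1 FPKM in CON was found for 17 members, and 15 members entered no test; their highest value in any library was 1.23 FPKM. These 15 were Col2a1, Col11a1 and Col24a1 of the fibrillar class, Col4a3, Col4a4 and Col4a6 of type IV, and Col6a6, Col7a1, Col9a1, Col9a2, Col9a3, Col17a1, Col19a1, Col22a1 and Col26a1. They include Col2a1 and the type IX chains of cartilage, and the anchoring chains Col7a1 and Col17a1 of stratified epithelia. Col7a1 was at 0.151 to 0.363 FPKM in CON, 0.159 to 0.374 in DSS, 0.0812 to 0.302 in HMLS, while TM had 0.163 to 0.319. Col17a1 was at 0.283 to 0.657 FPKM in CON, at 0.365, 0.358, 1.23, 0.624 and 0.976 in DSS, 0.167 to 0.571 in HMLS, while TM had 0.420 to 0.794, and overlapped between all groups.

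**Figure D1:**
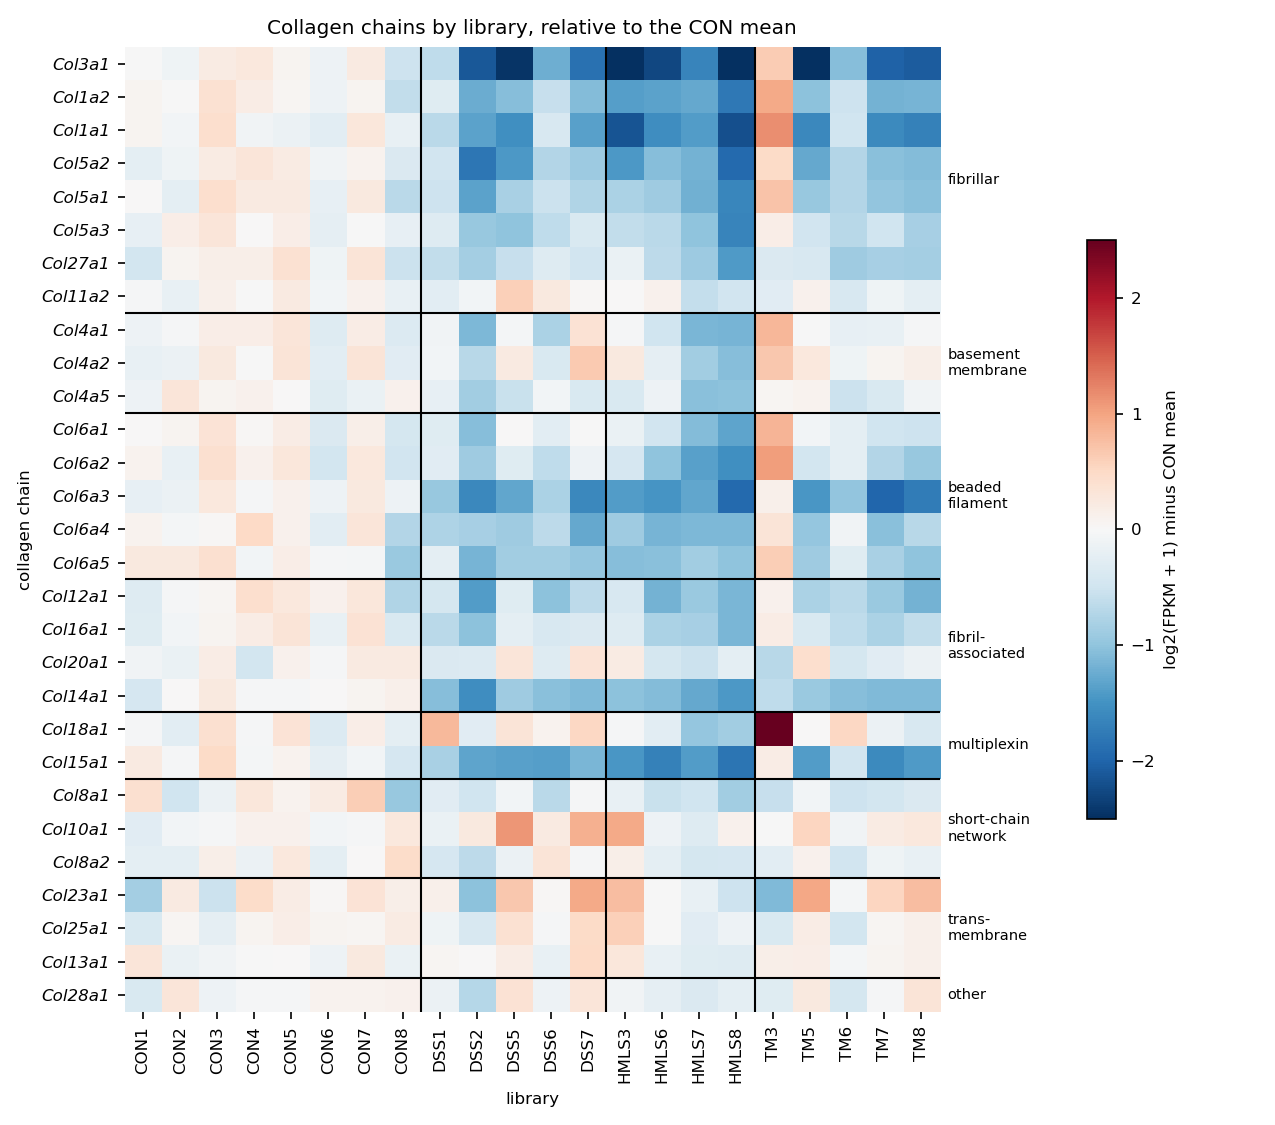
Level of the 29 tested collagen chains (rows, by class) in the 22 libraries (columns, by group and replicate number), as log2(FPKM + 1) minus the mean of the CON libraries, with colours capped at the ends of the scale. The rows of Col3a1, Col1a1, Col6a3, Col14a1 and Col15a1 are blue (below CON) in the DSS and HMLS libraries, whereas Col11a2, Col4a1, Col4a2 and Col18a1 vary in both directions; TM3 is TM replicate 3.

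The first question was how the collagens differ between colitis and healthy colon. In DSS against CON, 15 of 29 tested members were lower and 0 higher, where 13.1% of 13483 genes tested were lower and 14% higher. Their median log2 difference was -0.45, and that of all genes -0.01. Folds of the 15 lay between 1.34 and 3.16. The fibrillar class was lower in 7 of 8 tested chains (median -0.82), type IV in 1 of 3 (-0.34) and the other types in 7 of 18 (-0.32). In 7 members every DSS library was below every CON library, which held for 3.72% of all genes tested: Col1a1, Col3a1, Col5a2, Col5a3, Col6a3, Col14a1 and Col15a1. With the mapped share of each library as a covariate 0 members were called (26 genes in all) and the members' median was -0.74: since DSS did not overlap CON in mapped share, the share and the group cannot be told apart. Of the 29 tested members, 2 passed the filter on low values mainly through CON: Col6a5, called lower, and Col8a2, not called.

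Type III collagen, the homotrimer of the Col3a1 chain, is abundant in distensible organs. Col3a1 lay between 77.1 and 133 FPKM in CON (median 114) and at 71.5, 24.6, 19.4, 46.9 and 29.7 in the DSS libraries (replicates 1, 2, 5, 6 and 7). No DSS library reached the CON range. The log2 difference was -1.66 ± 0.25 (SE; limma, adjusted p = 0.00085), a 3.16-fold lower value. HMLS libraries (replicates 3, 6, 7 and 8) had 16.3, 22, 34.7 and 14 FPKM, a difference of -2.38 ± 0.20 from CON (adjusted p = 2.5e-05). The TM libraries (replicates 3, 5, 6, 7 and 8) had 172, 15.6, 52.2, 26.4 and 25.6 FPKM. Thus 4 TM libraries were below every CON library and replicate 3 was above every one. The difference was -1.46 ± 0.43 with all 5 (adjusted p = 0.024) and -1.98 without replicate 3 (adjusted p = 0.00016), and the call was lost without replicate 5, 7 or 8 (adjusted p = 0.066 at most).

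Type I collagen is a heterotrimer with Col1a1 and Col1a2 chains. Col1a1 lay between 22.9 and 37.5 FPKM in CON (median 26.4) and at 17.2, 10.4, 8.97, 20.9 and 10.2 in DSS. HMLS had 5.45, 8.89, 9.92 and 5.30, all below the DSS replicates 1, 2, 6 and 7, and TM had 63.9, 8.40, 19.6, 8.60 and 8.02. Col1a1 was lower in DSS by a log2 difference of -1.06 ± 0.18 (adjusted p = 0.0016) and in HMLS by -1.83 ± 0.17 (adjusted p = 2.7e-05). In TM the value of -0.84 ± 0.40 was not called (adjusted p = 0.14), and without replicate 3 it was -1.35 (adjusted p = 0.00053). Col1a2 lay between 31.2 and 62.5 FPKM in CON (median 50.1), at 38.7, 19.8, 22.6, 32.1 and 22.3 in DSS, at 18.0, 18.4, 19.1 and 13.2 in HMLS, and at 93.8, 23.1, 33.4, 20.8 and 20.9 in TM. DSS overlapped CON for this chain through replicates 1 and 6, and the lowest CON library was replicate 8. The log2 differences were -0.85 ± 0.17 in DSS (adjusted p = 0.0035) and -1.45 ± 0.15 in HMLS (adjusted p = 9.3e-05). In TM -0.59 ± 0.30 was not called (adjusted p = 0.16), and without replicate 3 it was -0.97 (adjusted p = 0.00085).

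Type V chains sit within type I fibrils and limit their diameter. Col5a2 lay between 11.2 and 18.4 FPKM in CON (median 14.6), at 10.2, 3.46, 4.80, 8.38 and 7.34 in DSS, at 4.79, 6.49, 5.84 and 3.06 in HMLS, and at 20.7, 5.38, 8.34, 6.51 and 6.35 in TM. All DSS and HMLS libraries were below CON. Its log2 differences were -1.07 ± 0.19, -1.40 ± 0.16 and -0.74 ± 0.24, all called (adjusted p = 0.0020, 0.00013 and 0.034), the TM call being lost without any of 8 single libraries. Col5a1 had 7.21 to 16.4 FPKM in CON (median 13.2), 8.09, 4.14, 6.43, 7.96 and 6.77 in DSS, 6.56, 6.01, 4.64 and 3.21 in HMLS, and 20.5, 5.73, 6.87, 5.56 and 5.32 in TM. It was called lower in DSS (-0.80 ± 0.18) and HMLS (-1.13 ± 0.20), and in TM its -0.60 ± 0.27 was not called (adjusted p = 0.12; -0.93 and called without replicate 3). Col5a3, a type V chain of fewer tissues, was at 3.73 to 5.82 FPKM in CON (median 4.51), 3.43, 1.86, 1.74, 2.58 and 3.22 in DSS, 2.59, 2.47, 1.75 and 0.772 in HMLS, and 5.22, 2.95, 2.40, 2.89 and 2.11 in TM. It was lower in all 3 comparisons (-0.66, -0.98 and -0.47), the TM call being lost without any of 8 single libraries (adjusted p = 0.098 at most). Col27a1, a fibrillar chain best known from cartilage, was at 2.39 to 5.40 FPKM in CON (median 4.26), 2.17, 1.70, 2.28, 2.92 and 2.51 in DSS, 3.37, 2.11, 1.62 and 0.820 in HMLS, and 2.82, 2.70, 1.64, 1.74 and 1.70 in TM. Its means fell from 4.0 ± 1.10 (SD, n = 8) to 2.32 ± 0.448, 1.98 ± 1.07 and 2.12 ± 0.584 FPKM, called in each comparison (-0.57, -0.79 and -0.67); the calls in DSS and HMLS were lost without DSS replicate 2 (adjusted p = 0.050) and HMLS replicate 8 (adjusted p = 0.065). Col11a2 was the 1 tested fibrillar chain not called in any comparison: 1.01 ± 0.202 FPKM in CON, 1.21 ± 0.526 in DSS, 0.733 ± 0.410 in HMLS, while TM had 0.772 ± 0.244.

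**Figure D2:**
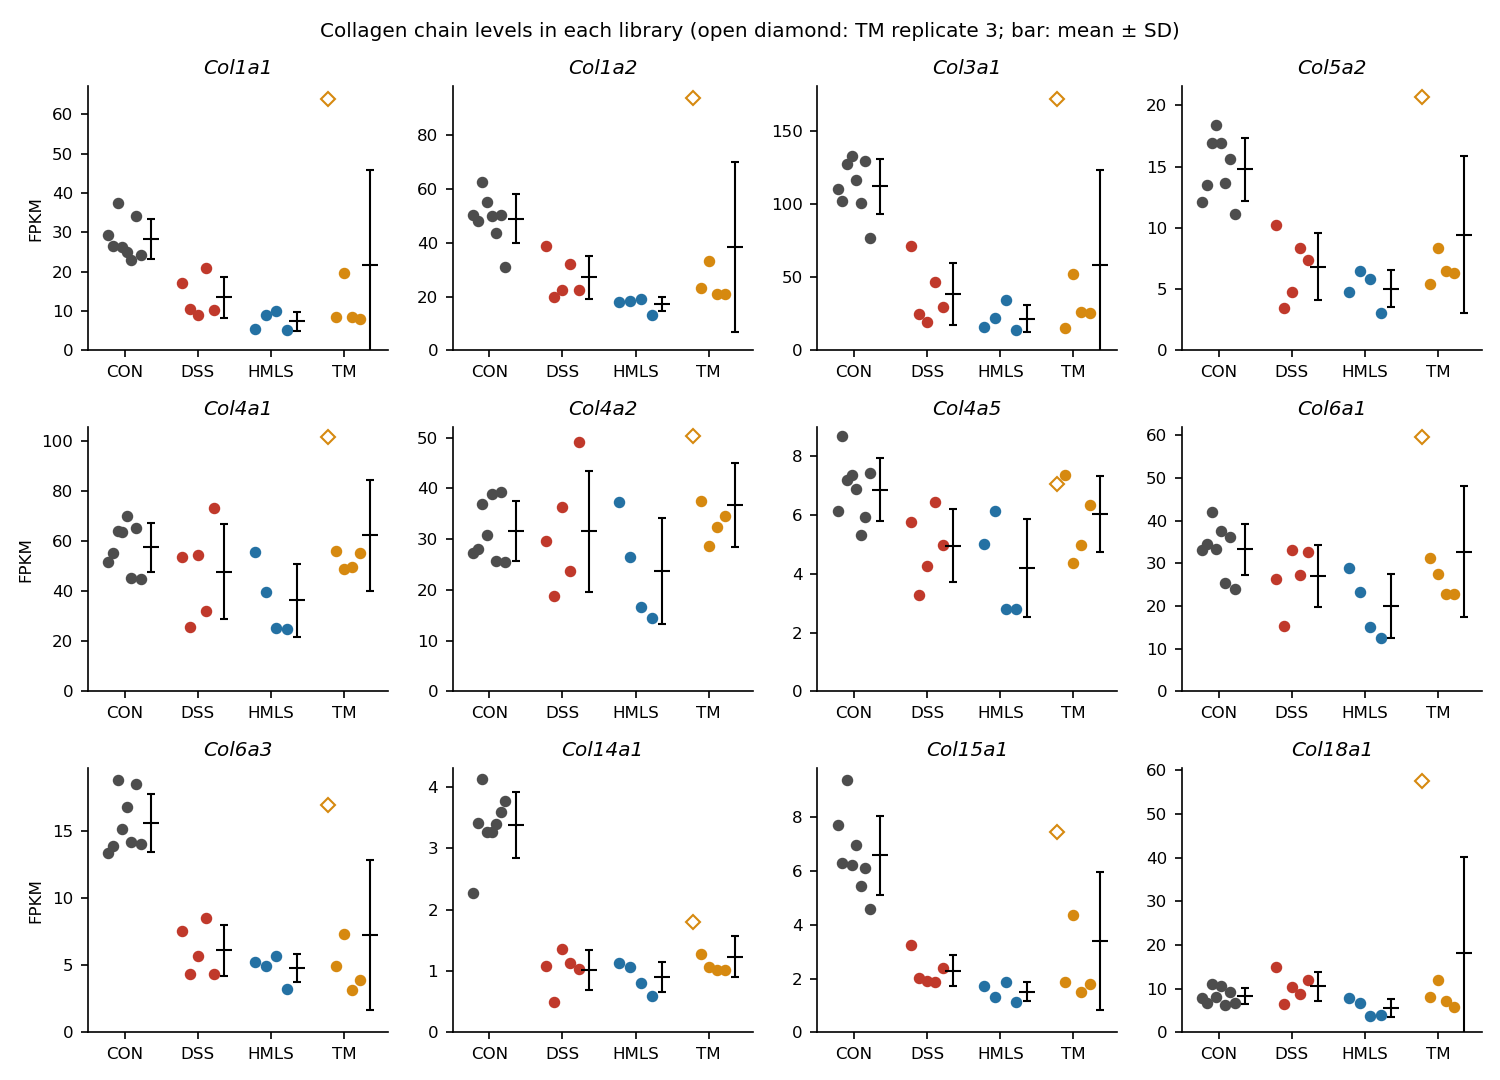
FPKM of 12 collagen chains in each library (points, 1 per library; black bars, mean and SD of the group, cut at 0), with TM replicate 3 as an open diamond. Col3a1, Col6a3, Col14a1 and Col15a1 in DSS and HMLS lie below all CON points, whereas Col4a1, Col4a2 and Col18a1 overlap CON in DSS, and the open diamond is above the CON points for Col1a1, Col1a2 and Col3a1.

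The median log2 difference of the 3 tested type IV chains in DSS was -0.34, against -0.82 in the 8 tested fibrillar chains. That of the 18 other tested chains was -0.32, and the difference between classes was not tested. Col4a1, which with Col4a2 forms the network found in nearly all basement membranes, lay between 44.8 and 70.2 FPKM in CON (median 59.6), at 53.6, 25.7, 54.7, 32.3 and 73.3 in DSS, at 55.9, 39.7, 25.3 and 25.0 in HMLS, and at 102, 56.2, 49.1, 49.9 and 55.5 in TM. The DSS libraries fell on both sides of the CON range. Its log2 difference in DSS was -0.34 ± 0.21 (adjusted p = 0.24), that in HMLS -0.71 ± 0.19 and called (adjusted p = 0.013), and that in TM 0.08 ± 0.17 (adjusted p = 0.77; -0.11 without replicate 3). The call in HMLS was lost without HMLS replicate 8 (adjusted p = 0.060). Col4a2 lay between 25.5 and 39.2 FPKM in CON (median 29.4), at 29.5, 18.9, 36.4, 23.7 and 49.2 in DSS, at 37.2, 26.4, 16.5 and 14.4 in HMLS, and at 50.2, 37.6, 28.7, 32.5 and 34.6 in TM. None of its differences was called: -0.06 ± 0.19 in DSS, -0.48 ± 0.21 in HMLS (adjusted p = 0.091; -0.72 and called without HMLS replicate 3) and 0.21 ± 0.14 in TM. Col4a5, found in fewer basement membranes, had 5.31 to 8.69 FPKM in CON (median 7.05), 5.77, 3.28, 4.27, 6.45 and 4.99 in DSS, 5.01, 6.14, 2.79 and 2.81 in HMLS, and 7.06, 7.35, 4.38, 5.00 and 6.33 in TM. It was called in DSS (-0.42 ± 0.14, adjusted p = 0.038), a call lost when any of 8 single libraries was left out, and in HMLS (-0.64 ± 0.17, adjusted p = 0.010), and not in TM (-0.17 ± 0.13).

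The chains of type VI collagen, which are assembled from Col6a1, Col6a2 and another chain such as Col6a3, did not move by the same amount. Col6a3 lay between 13.3 and 18.8 FPKM in CON (median 14.6), at 7.57, 4.38, 5.70, 8.52 and 4.37 in DSS, at 5.21, 4.94, 5.72 and 3.26 in HMLS, and at 16.9, 4.97, 7.32, 3.19 and 3.93 in TM. All DSS and HMLS libraries, and the TM libraries other than replicate 3, were below CON. It was called in each comparison, with log2 differences of -1.25 ± 0.15 (adjusted p = 0.00027), -1.53 ± 0.13 (adjusted p = 2.6e-05) and -1.21 ± 0.27 (adjusted p = 0.0056). Col6a1 had 24.0 to 42.0 FPKM in CON (median 33.9) and 26.3, 15.3, 33.2, 27.3 and 32.8 in DSS, 4 of the 5 inside the CON range. HMLS had 29.0, 23.4, 15.1 and 12.6 and TM 59.6, 31.2, 27.5, 22.9 and 22.8. Its differences were -0.32 ± 0.18 in DSS (adjusted p = 0.18), -0.76 ± 0.20 in HMLS (adjusted p = 0.0090, called) and -0.10 ± 0.20 in TM (adjusted p = 0.75). Col6a2 had 17.5 to 33.0 FPKM in CON (median 26.6), 20.2, 13, 19.9, 15.8 and 22.8 in DSS, 18.3, 11.8, 9.10 and 7.91 in HMLS, and 52.5, 17.9, 21.0, 14.7 and 12.4 in TM. In DSS its -0.45 ± 0.17 just missed the threshold (adjusted p = 0.061; called without CON replicate 6 or 8), in HMLS -1.08 ± 0.21 was called (adjusted p = 0.0018), and in TM -0.26 ± 0.28 was not (adjusted p = 0.51; -0.59 and called without replicate 3). The lower Col6a4 and Col6a5, related chains that can take the place of Col6a3, were called in DSS (-0.88 ± 0.18 and -0.82 ± 0.21) and HMLS (-1.07 ± 0.18 and -1.0 ± 0.20). In TM neither was called (-0.49 and -0.48; adjusted p = 0.14 and 0.19), and without replicate 3 both were (-0.69 and -0.75). Col6a4 was at 2.27 to 6.68 FPKM in CON (median 4.65), 2.19, 2.08, 1.93, 2.45 and 1.25 in DSS, 1.94, 1.43, 1.49 and 1.5 in HMLS, and 5.79, 1.79, 4.11, 1.64 and 2.38 in TM. Col6a5 was at 0.363 to 2.43 FPKM in CON (median 1.71), 1.19, 0.145, 0.419, 0.413 and 0.315 in DSS, 0.228, 0.242, 0.406 and 0.276 in HMLS, and 2.94, 0.384, 1.10, 0.470 and 0.292 in TM. In DSS and HMLS this chain passed the filter on low values mainly through CON, so that it could differ in 1 direction only. It reached 1 FPKM in 7 CON, 1 DSS and 0 HMLS libraries. The HMLS libraries were all below CON for Col6a4, and for Col6a5 the lowest CON library, replicate 8, lay among the colitis libraries.

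Of the fibril-associated chains, 3 of 4 tested were lower in DSS. Col14a1, which binds decorin-coated fibrils, was called in all 3 comparisons and was the 1 member whose TM libraries, replicate 3 included, were all below CON (3.4% of 13485 genes tested). It had 2.27 to 4.13 FPKM in CON (median 3.40), 1.09, 0.490, 1.36, 1.12 and 1.03 in DSS, 1.13, 1.07, 0.803 and 0.601 in HMLS, and 1.79, 1.28, 1.07, 1.02 and 1.02 in TM. No colitis library reached the CON range, while the colitis groups overlapped one another. The log2 differences from CON were -1.13 ± 0.13, -1.20 ± 0.13 and -0.97 ± 0.12. Col12a1, its close relative, had 4.54 to 11.5 FPKM in CON (median 8.85), 5.92, 2.55, 6.55, 3.58 and 4.97 in DSS, 6.08, 3.12, 3.92 and 3.25 in HMLS, and 9.09, 4.42, 4.84, 3.93 and 3.12 in TM, and was called in each (-0.76 ± 0.21, -0.91 ± 0.20 and -0.69 ± 0.21). CON replicates 1 and 8 lay inside the range of DSS, and the call in TM was lost without CON replicate 5 or TM replicate 5, 7 or 8 (adjusted p = 0.080 at most). Col16a1, found with fibrillin and with collagen fibrils, had 5.23 to 9.35 FPKM in CON (median 7.11), 4.09, 2.97, 5.81, 5.14 and 5.32 in DSS, 5.52, 3.70, 3.56 and 2.68 in HMLS, and 8.23, 5.20, 4.22, 3.69 and 4.29 in TM. It was called in DSS (-0.54 ± 0.16; adjusted p = 0.059 without DSS replicate 2) and HMLS (-0.77 ± 0.17), and in TM -0.45 ± 0.17 missed the threshold (adjusted p = 0.060; called without CON replicate 1 or 8 or TM replicate 3). Col20a1 was not called in any comparison.

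Of the multiplexins, Col15a1 was lower in all 3 comparisons and Col18a1 was called in HMLS alone; the difference between these chains was not tested. Col15a1, a proteoglycan chain of the outer basement membrane zone of vessels and muscle, lay between 4.60 and 9.41 FPKM in CON (median 6.26), at 3.27, 2.01, 1.92, 1.88 and 2.39 in DSS, at 1.74, 1.32, 1.86 and 1.11 in HMLS, and at 7.47, 1.86, 4.36, 1.49 and 1.80 in TM. Its log2 differences were -1.20 ± 0.15, -1.59 ± 0.15 and -0.94 ± 0.26; the last call was lost without TM replicate 5 (adjusted p = 0.051) or 7 (adjusted p = 0.050). Col18a1, the chain from which endostatin is cut, lay between 6.17 and 11 FPKM in CON (median 7.98) and at 15.1, 6.54, 10.4, 8.69 and 12 in DSS. There its log2 difference was 0.29 ± 0.18 (adjusted p = 0.22). HMLS had 7.95, 6.62, 3.69 and 4.01 FPKM, a called difference of -0.53 ± 0.19 (adjusted p = 0.040) that was lost without any of 7 single libraries. TM had 57.4, 8.21, 12, 7.21 and 5.89, a difference of 0.53 ± 0.41, or -0.01 without replicate 3. The short-chain types Col8a1, Col8a2 and Col10a1 and the transmembrane chains Col13a1, Col23a1 and Col25a1 were not called where they were tested. Col10a1 had the highest value of the members in DSS, 0.46 ± 0.18 (adjusted p = 0.076), with means of 1.3 ± 0.255 FPKM in CON and 2.31 ± 1.20 in DSS.

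Against CON, HMLS had 19 of 27 tested members lower and 0 higher, with a median log2 difference of -0.79 (all genes 0.00; 16.6% of 13400 genes lower and 17.5% higher). By class these were 7 of 8 fibrillar chains (median -1.27), 2 of 3 type IV chains (-0.64) and 10 of 16 others (-0.76). In 10 members all HMLS libraries were below CON (7.21% of genes tested). Of the 27 members, 7 passed the filter on low values mainly through CON, with fewer than 4 HMLS libraries at 1 FPKM. Among these, Col5a3, Col6a5, Col14a1 and Col27a1 were called lower.  TM had 8 of 28 lower and 0 higher, with a median of -0.42 (all genes 0.01; 11.8% of 13485 genes lower and 14.3% higher): 4 of 8 fibrillar chains (median -0.63), 0 of 3 type IV chains (0.08) and 4 of 17 others (-0.26). This count was 15 without TM replicate 3, with a median of -0.60, and 3 without TM replicate 5 or 7, 4 without TM replicate 8 and 5 without CON replicate 5. The 8 chains called in TM, Col3a1, Col5a2, Col5a3, Col27a1, Col6a3, Col12a1, Col14a1 and Col15a1, were called in DSS and HMLS too. In TM 3 of the 28 members passed the filter mainly through CON (Col6a5, Col8a2 and Col28a1), and none was called with all libraries. The 3 comparisons share the CON libraries. In all, 8 members were lower in each comparison, 7 in 2, 4 in 1 (Col4a1, Col6a1, Col6a2 and Col18a1, in HMLS) and 25 in none. The 25 include the 15 members that entered no test.

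**Figure D3:**
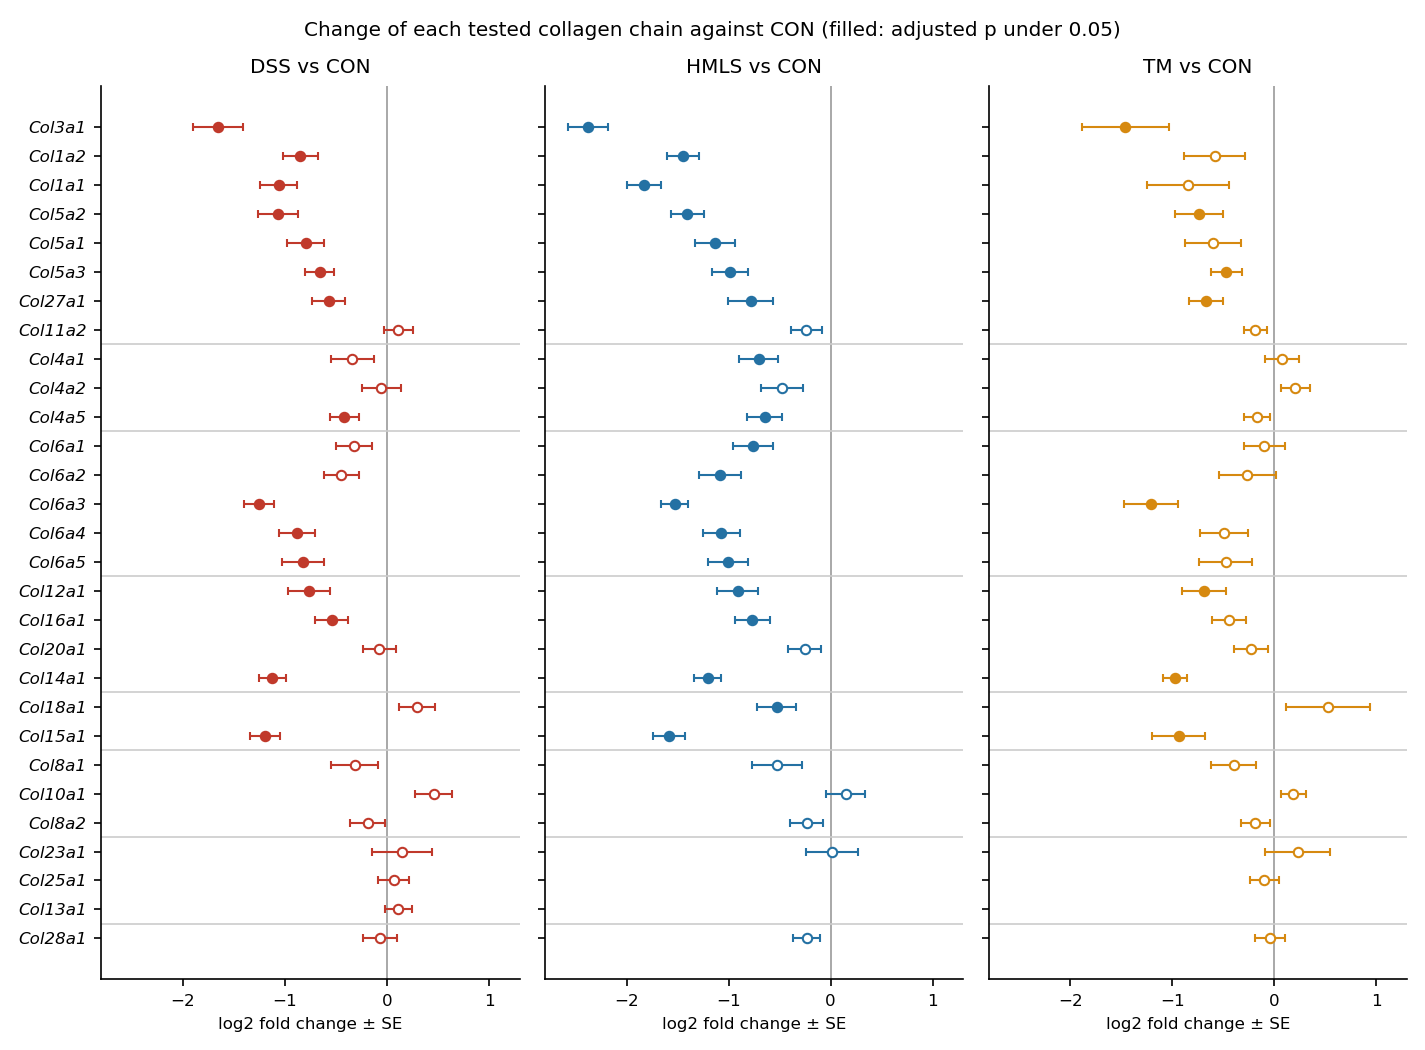
Log2 difference in log2(FPKM + 1) of each tested chain against CON, with its SE, for DSS, HMLS and TM, ordered by class with grey lines between classes; filled points passed an adjusted p of 0.05 and chains not tested have no point. Col3a1 has the lowest value in each panel (-1.66, -2.38 and -1.46), and the type IV chains, the second block, lie nearer to 0 in DSS and TM.

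Ratios between chains within a library depend little on how the library was scaled, and show unequal change without saying which chain changed. Of 15 ratio comparisons with CON (5 pairs, 3 groups; two-sided exact permutation tests over libraries, p adjusted over the 15), 9 passed 0.05. The Col3a1 to Col1a1 ratio averaged 4.02 ± 0.64 in CON (SD, n = 8), 2.77 ± 0.83 in DSS (n = 5), 2.91 ± 0.45 in HMLS (n = 4), while TM had 2.70 ± 0.52 (n = 5). On the log2(FPKM + 1) scale it was lower by -0.60 (exact adjusted p = 0.018), -0.55 (exact adjusted p = 0.017) and -0.62 (exact adjusted p = 0.0078). On that scale all TM libraries, replicate 3 included, were below all CON libraries; in FPKM without the added 1 the highest TM ratio, 3.19, was above the lowest CON ratio, 3.16. The Col6a3 to Col6a1 ratio was 0.475 ± 0.068 in CON, 0.239 ± 0.080 in DSS, 0.258 ± 0.088 in HMLS, while TM had 0.204 ± 0.066. Its log2 differences were -0.93, -0.77 and -1.11 (exact adjusted p = 0.0078, 0.017 and 0.0078), and DSS and TM did not overlap CON.

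Between the paired type IV chains, the Col4a2 to Col4a1 ratio was 0.548 ± 0.039 in CON, 0.671 ± 0.074 in DSS, 0.640 ± 0.043 in HMLS, while TM had 0.604 ± 0.070. It was higher by 0.28 in DSS (exact adjusted p = 0.017) and 0.23 in HMLS (exact adjusted p = 0.017), while 0.13 in TM did not pass (exact adjusted p = 0.13; 0.20 and exact adjusted p = 0.013 without replicate 3). These are the genes with overlapping promoter windows. The library kit keeps the strand, but whether the quantification used it is not stated in the sources used here. Reads over the few shared bases may thus have been counted for either gene, and their part in the ratio was not tested. The Col1a1 to Col4a1 ratio, fibrillar against basement membrane, was 0.496 ± 0.078 in CON, 0.336 ± 0.206 in DSS, 0.231 ± 0.122 in HMLS, while TM had 0.299 ± 0.212. It was lower in HMLS (-1.12, exact adjusted p = 0.017), and neither -0.72 in DSS (exact adjusted p = 0.087) nor -0.92 in TM (exact adjusted p = 0.053; -1.23 and exact adjusted p = 0.013 without replicate 3) passed. The Col1a2 to Col1a1 ratio, the chains of type I, was 1.74 ± 0.27 in CON, 2.08 ± 0.38 in DSS, 2.45 ± 0.61 in HMLS, while TM had 2.19 ± 0.57, and none of its 3 comparisons passed (exact adjusted p = 0.14, 0.053 and 0.14).

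**Figure D4:**
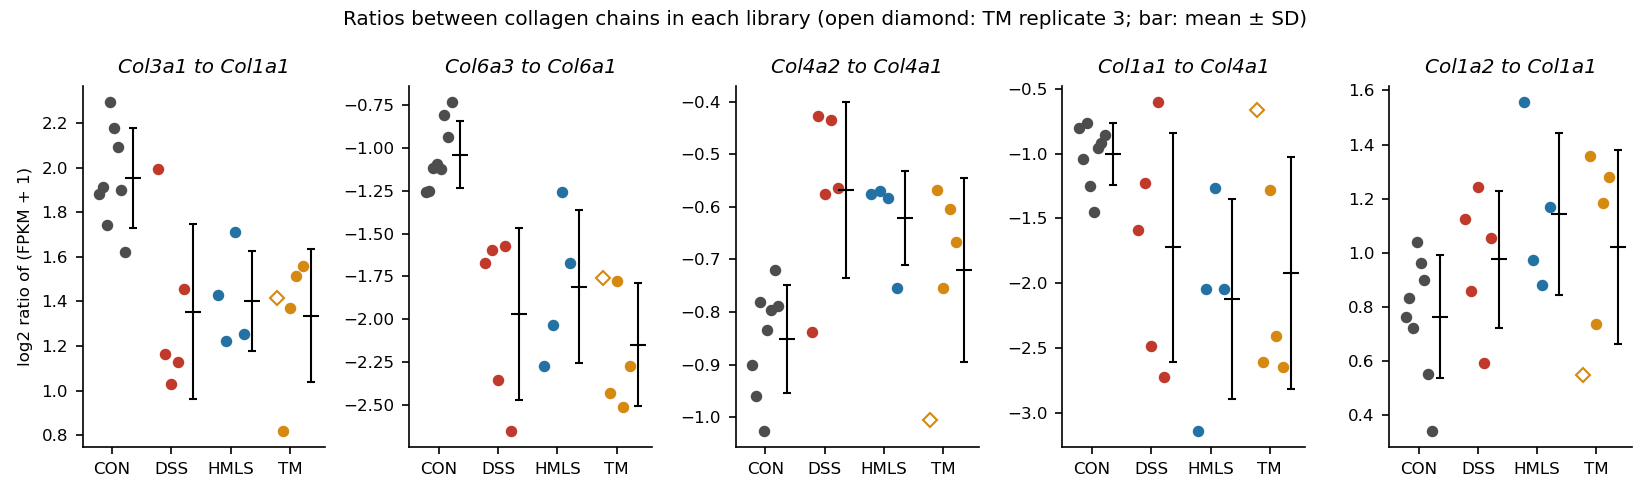
Log2 ratio of (FPKM + 1) between 5 pairs of chains in each library (points; bars, mean and SD), with TM replicate 3 as an open diamond. For Col3a1 to Col1a1 and Col6a3 to Col6a1 TM replicate 3 lies with the other colitis libraries, whereas for Col4a2 to Col4a1, Col1a1 to Col4a1 and Col1a2 to Col1a1 it lies inside the CON range or above it.

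In DSS and HMLS the make-up of the collagen mRNA differed from CON along with its mean total. Summed over the 44 members, the level was 458 ± 71.1 FPKM in CON (SD, n = 8), 282 ± 65.9 in DSS (n = 5), 198 ± 53.7 in HMLS (n = 4), while TM had 369 ± 227 (n = 5), with TM replicate 3 at 773 and the other TM libraries at 242 to 309. Fibrillar chains held 46.6 to 51.6% of this sum in CON, 24.6 to 44.4% in DSS, 22.4 to 43.3% in HMLS, while TM had 24.0 to 49.2%. The DSS and HMLS libraries were all below CON, and TM replicate 3 was the highest of TM. Type IV held 19.8 to 23.1% in CON, 22.6 to 39.0% in DSS, 24.8 to 37.9% in HMLS, while TM had 20.6 to 39.0%. Sums are weighted to the abundant chains, and neither the sums nor these shares were tested.

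**Figure D5:**
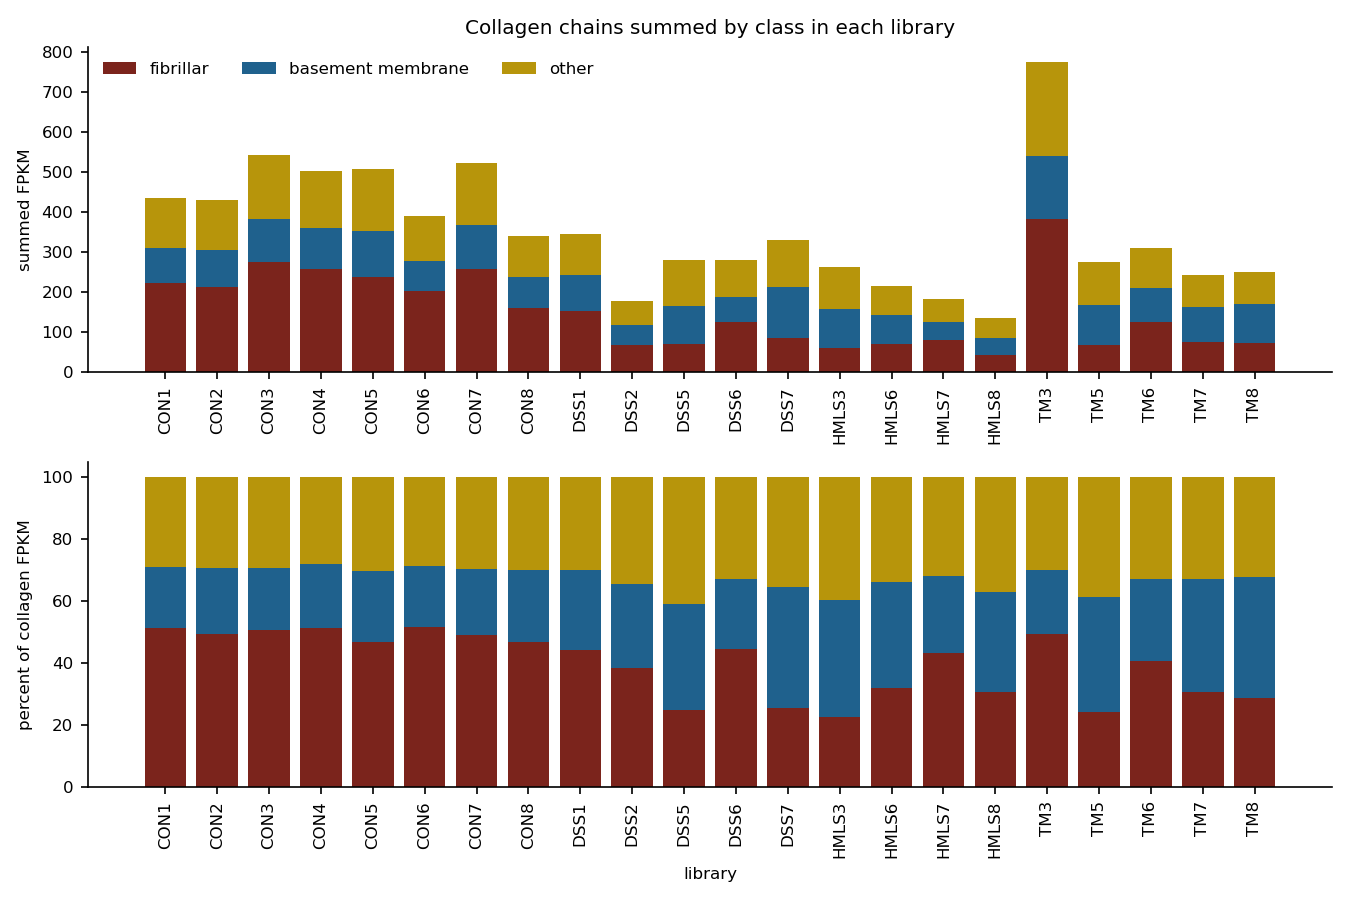
FPKM summed by collagen class (top) and each class as a percent of the collagen sum (bottom) in each library. The fibrillar part is 46.6 to 51.6% of the sum in CON and at most 44.4% in the DSS and HMLS libraries, and TM3 (TM replicate 3) has the highest sum, 773 FPKM.

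Genes that make and handle collagen were counted by lists. Of 27 tested genes of collagen biosynthesis and processing, 12 were lower and 0 higher in DSS (median -0.34), 16 and 0 in HMLS (-0.43), and 7 and 1 in TM (-0.12). Over all genes tested 13.1% were lower and 14% higher in DSS, 16.6% and 17.5% in HMLS, and 11.8% and 14.3% in TM, against which these list counts, and those of receptors, partners and markers, are to be read. Serpinh1, the collagen chaperone Hsp47, had a CON mean of 30.6 ± 6.78 FPKM (SD, n = 8), against 10.8 ± 4.70 in DSS (n = 5) and 9.0 ± 2.33 in HMLS (n = 4), with log2 differences of -1.49 and -1.66 (limma, adjusted p = 0.0011 and 9.9e-05), and of -1.25 in TM (adjusted p = 0.0028). P4ha1, a subunit of prolyl 4-hydroxylase, was lower by -0.79 in DSS, -1.14 in HMLS and -1.03 in TM, and Loxl2, a cross-linking lysyl oxidase-like enzyme, by -0.86 in DSS and -1.05 in HMLS. Plod2, a lysyl hydroxylase, and Pcolce, an enhancer of procollagen C-proteinase, were lower in each comparison (-0.49 and -0.79 in DSS). Pcolce2, its relative, was also called lower in each, but passed the filter on low values mainly through CON (means 1.02 FPKM in CON and 0.332 in DSS), so that it could differ in 1 direction only. Loxl3, lower in HMLS, passed the filter there in the same way. Lox, the founding lysyl oxidase, named after its values were seen, was the 1 gene of the list that was higher (TM, 0.84, limma adjusted p = 0.0038). Of 7 tested collagen receptors 1 was lower and 3 higher in DSS: Itga2, an integrin of epithelium and platelets, rose (0.59), as did Itgb1 (0.37) and Ddr1 (0.46), which both lost the call without single libraries. The lower one, Itga11, an integrin of fibroblasts (-0.51), passed the filter mainly through CON (means 1.18 and 0.526 FPKM). Itga1 (-0.40) and Ddr2 (-0.27), receptors of mesenchymal cells, were not called. HMLS had 0 lower and 2 higher, and TM 0 and 3. Of 21 matrix partners 8 were lower and 2 higher in DSS, 9 and 2 in HMLS, and 1 and 2 in TM; the shares that were higher, and the share lower in TM, were below those of all genes. Lum (lumican) was lower in each (-1.36, -1.17 and -1.55), and Fbn1 (fibrillin-1), Sparc, Postn and Dcn in DSS (-0.59, -0.77, -0.82 and -0.98, the last lost without any of 6 single libraries).

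Markers of some cell types were lower along with the collagens, and their part in the results was not tested. Summed over 8 fibroblast markers, of which Lum and Dcn are also among the matrix partners, levels were 122 to 195 FPKM in CON, 36.7 to 148 in DSS, 76.8 to 138 in HMLS, while TM had 92.7 to 178, and 5, 6 and 4 of the 8 were lower in DSS, HMLS and TM, of which Mfap5 and Pi16 passed the filter mainly through CON. The defining markers were present throughout: Pdgfra averaged 17.9, 15.1, 12.8 and 20.6 FPKM and Dpt 32.5, 14, 15.8 and 16.7 in CON, DSS, HMLS and TM. The 8 smooth muscle markers summed to 1313 to 2560, 592 to 2267, 1348 to 2528 and 849 to 1850 FPKM in the same order (4, 0 and 5 lower). Myh11 averaged 262, 261, 313 and 256 FPKM and Actg2 413, 231, 332 and 225. The 7 endothelial markers summed to 19.1 to 40.4, 12.5 to 28.6, 14.1 to 28.1 and 24.5 to 34.8 FPKM (3, 4 and 1 lower). Of those lower, Emcn and Tek in DSS and Tek in HMLS passed the filter mainly through CON. The adipocyte sum was 70.3 to 957 FPKM in CON, 40.8 to 122 in DSS, 42.8 to 460 in HMLS, while TM had 30.5 to 94.8, and 5, 0 and 6 of 6 tested markers were lower. Among these, Plin1 in DSS and Adipoq, Plin1 and Retn in TM passed the filter mainly through CON. Plin1 was listed at 0 in at least 1 DSS and 1 TM library.

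Epithelial markers, 7 genes with Epcam at 617 to 923 and Vil1 at 108 to 215 FPKM, marked all libraries as epithelial tissue. Their sum was 7553 to 9487 FPKM in CON, 5056 to 9883 in DSS, 4339 to 6526 in HMLS, while TM had 5606 to 7915. HMLS lay below CON in this sum. In CON most of the sum was Muc2 (means 5783 FPKM in CON and 2655 in HMLS). By gene 0 were lower and 2 higher in DSS, 1 and 2 in HMLS and 0 and 1 in TM. The 4 leukocyte markers summed to 27.6 to 95.5 FPKM in CON, 23.5 to 33.6 in DSS, 15.2 to 23.0 in HMLS, while TM had 27.7 to 67.8, and 3, 4 and 1 of them were lower in the colitis groups. Mesothelial (1.94 to 13.4 FPKM in CON, 0.760 to 7.04 over the colitis groups), glial and neuronal (8.05 to 17.1 and 6.42 to 37.6) and skeletal muscle sums (8.58 to 23.5 and 8.05 to 16.1) were low, and no mesothelial, glial or neuronal marker was called in any of the 3 comparisons. Of 2 tested skeletal muscle markers, 1 was lower in DSS (-0.76), 0 in HMLS and 1 in TM (-0.88). In TM replicate 3, with its high collagens, the fibroblast sum was 178, the smooth muscle sum 1029, the endothelial sum 31.4, the adipocyte sum 60.8 and the epithelial sum 5606 FPKM, the last the lowest of TM.

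The second question was whether deep sea water changed the collagens of the DSS-treated colon. No member and no other gene was called in HMLS against DSS, TM against DSS or HMLS against TM (limma, 13341 genes tested; 5.55, 2.75 and 9.44% had an unadjusted p under 0.05, and 0, 0 and 8 of the 27 members tested). In HMLS against DSS the log2 difference was below 0 in 27 of 27 members tested (6701 of all 13341 genes), with a median of -0.31. Of these 27, 5 had fewer than 4 HMLS libraries at 1 FPKM and 4 or more such DSS libraries. They thus passed the filter on low values mainly through the other groups. The smallest p were those of Col6a2 (-0.64 ± 0.34), Col11a2 (-0.35 ± 0.20) and Col18a1 (-0.82 ± 0.49), all with an adjusted p of 0.85. For Col1a2 and Col15a1 every HMLS library was below every DSS library (0.607% of genes tested), at 13.2 to 19.1 against 19.8 to 38.7 FPKM and 1.11 to 1.86 against 1.88 to 3.27 FPKM, with log2 differences of -0.60 ± 0.36 and -0.39 ± 0.30. The chains share libraries and do not count as separate tests of a group.

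In TM against DSS 6 of 27 members were below 0, with a median of 0.18. Without TM replicate 3 the median was -0.04. With the replicate number as a block over DSS, HMLS and TM it was -0.06, though the labels do not say that the numbers mark pairs. The smallest p belonged to Col6a4 (0.39 ± 0.23), Col4a1 (0.42 ± 0.30), Col4a5 (0.24 ± 0.21), Col11a2 (-0.30 ± 0.19), Col10a1 (-0.27 ± 0.27) and Col25a1 (-0.16 ± 0.21), with adjusted p of 1. HMLS against TM had 26 of 27 members below 0, with a median of -0.47, or -0.36 without TM replicate 3. Of these 27, 4 had fewer than 4 HMLS libraries at 1 FPKM and 4 or more such TM libraries. Col4a1 (-0.78 ± 0.32), Col6a2 (-0.82 ± 0.34) and Col1a2 (-0.86 ± 0.36) had the smallest p (adjusted p = 0.49) and were -0.59, -0.49 and -0.48 without TM replicate 3. Col25a1, at 0.14 ± 0.23, was the 1 member above 0. For Col1a2 all HMLS libraries were below all TM libraries, at most 19.1 against at least 20.8 FPKM (2.2% of genes tested). Col3a1 differed from DSS by -0.72 ± 0.56 in HMLS and by 0.20 ± 0.53 in TM, with errors too wide to show either a difference or a like level.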

How the data were processed

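Colon RNA was made into libraries with a stranded total RNA kit, per the labels' protocols. The deposited table holds 23997 genes in 22 libraries. It names no unit, and its values were read as FPKM made by the authors with Cufflinks 2.2.0 after TopHat2 2.0.13 on mm10, tools listed per the submitters' processing notes with bcl2fastq 2.20 and Bowtie. A deposited table of mapping statistics gives the read count of each library and the percent mapped. Whole reads per gene could not be recovered from the FPKM, so the depth behind each value is unknown. No pair of libraries was identical.

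Genes that reached 1 FPKM in 4 or more libraries of a fit were tested by limma 3.58.1 (trended prior, robust; R 4.3.3) as log2(FPKM + 1), with Benjamini-Hochberg adjustment over all genes tested. Comparisons with CON used their own 2 groups, and those among DSS, HMLS and TM shared 1 fit of these groups. Chain ratios were tested by two-sided exact permutation over libraries (scipy 1.17.1, Python 3.11.15). The limma fit was checked on simulated data, with genes drawn independently and with no outlying library and no effect of mapped share. That check therefore does not bear on TM replicate 3 or on the mapped share. Members were named if listed among the main chains or called, list genes by the smallest p in DSS against CON (up to 6 a list), and marker lists by their first 2 genes. The members and lists were chosen with earlier results of these data known. The values of 1 matrix partner are not reported here.

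Alternatives were a pseudocount of 0.1, no filter, a TMM-type rescaling (30% of ratios and 5% of levels trimmed), the mapped share as covariate, 1 fit of 4 groups, a replicate block and leaving out each library. Same-numbered libraries of TM and DSS correlated at r over genes of 0.14 to 0.44 in 3 pairs, and 1 of the 3 correlated best with its own number. The labels do not say what the numbers mark, so pairing is not shown in any comparison. For TM against DSS the block was fitted over DSS, HMLS and TM together.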

Additional observations from a re-analysis of the deposited data

Results flagged for a closer look

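Among 88 sets of values (a chain in a group of libraries), 6 had a library far from the others by Dixon's test; chance gives about 1 in 20. Of these, 2 came from TM replicate 3, the highest of TM for Col4a1 (101.8 FPKM) and for Col5a1 (20.5 FPKM). Col6a4 was highest in HMLS replicate 3, at 1.94 FPKM. Col1a2 was lowest in HMLS replicate 8, at 13.2 FPKM. In CON, Col14a1 was lowest in replicate 1, at 2.27 FPKM, still above all colitis libraries, and Col6a5 was lowest in replicate 8, at 0.363 FPKM.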

How the results depend on the processing

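In DSS against CON 14 to 16 members were called under the alternatives, except 0 with the mapped share as covariate, and 12 to 16 without single libraries (12 without DSS replicate 2). In HMLS against CON the counts were 12 (the replicate block) to 20 and 16 to 20, and in TM against CON 6 (the replicate block) to 8 and 3 to 15. Among DSS, HMLS and TM no member was called under any alternative run; without HMLS replicate 3, 1 gene was called against DSS and 3 against TM. The replicate block called 14 members in DSS, 12 in HMLS and 6 in TM against CON, and 2176, 753 and 2000 genes, where 3655, 4565 and 3510 were called without it. These numbers do not pair the libraries by the data: same-numbered libraries correlated at -0.21 to 0.34, -0.13 to 0.080 and -0.0014 to 0.21, and 2 of 5, 0 of 4 and 1 of 5 correlated best with their own number. In TM against DSS 1 of 3 pairs correlated best with its own number, and the block called 0 members and changed no call.

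Signs turned without single libraries for Col4a2 in DSS (-0.23 to 0.10), and in TM for Col4a1 (-0.11 to 0.15), Col18a1 (-0.0084 to 0.76) and Col6a1 (-0.33 to 0.0043), all against CON and none called, and for Col25a1 in HMLS against TM (-0.047 to 0.25). With the mapped share as covariate they turned for Col6a4 (-0.094), Col10a1 (0.090) and Col25a1 (0.25) in TM against DSS and for Col25a1 in HMLS against TM (-0.00045). The log2 ratio of Col1a2 to Col1a1 in HMLS passed with a pseudocount of 0.1 (0.46, exact adjusted p = 0.036). Ratios that passed without some single library ranged as follows: Col1a2 to Col1a1 from 0.24 to 0.47 in HMLS, 0.14 to 0.31 in DSS and 0.17 to 0.38 in TM; Col1a1 to Col4a1 from -1.0 to -0.47 in DSS and -1.23 to -0.74 in TM; Col4a2 to Col4a1 from 0.093 to 0.20 in TM. The causes were not tested. The 9 ratios that passed kept their side of the threshold without any single library. Low chains are limited by an unknown number of reads.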
